A study of Mus musculus with 9 samples.

Results

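The 44 genes described here code for DNA repair and damage checkpoint proteins, 11 of them grouped here under the Fanconi anaemia pathway. Each gene is listed under a single role, also where it acts in several pathways. They were taken by symbol from a count table of 24391 gene rows; all 44 had a row and all 44 were among the 12573 genes that passed the low-count filter. The cells were bone marrow cells of C57BL/6 mice of 6 to 8 weeks with AML1-ETO9a leukaemia, the disease model that all samples share. AML1-ETO9a is a truncated variant of the fusion protein made by a translocation in acute myeloid leukaemia. Cells had been sorted on 2 surface proteins, CD43, a sialoglycoprotein of leukocytes, and c-Kit, the receptor for stem cell factor, with 3 RNA-seq libraries for each sort: CD43++ckit+ cells, called double-positive here, CD43+ckit- cells, called single-positive, and CD43-ckit- cells, called double-negative. The labels give no non-leukaemic control, and they do not say what drives the fusion gene or whether the libraries of a sort are different animals, so the p-values speak only of the spread among these libraries, and that spread may be technical.

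Repair proteins are grouped by the damage they handle. Homologous recombination copies a broken stretch from the sister chromatid and needs a replicated genome, while end joining seals breaks at any point of the cell cycle. The Fanconi proteins form a core ubiquitin ligase that marks FANCD2 and FANCI at DNA crosslinks met by a replication fork. Mismatch repair follows the fork, and base and nucleotide excision repair remove damaged bases and bulky lesions. Blood stem and progenitor cells are known to be sensitive to loss of the Fanconi pathway, which causes bone marrow failure.

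Library totals were 28530150 to 31781746 counts in double-positive cells, 27378734 to 28214639 in single-positive cells and 17966197 to 21609537 in double-negative cells. Kit, which encodes c-Kit, averaged 164 ± 15.9, 15.8 ± 7.01 and 34.1 ± 13.2 CPM (read counts scaled to a common library size; ± SD, n = 3) in that order. Spn, which encodes CD43, averaged 502 ± 63.7, 194 ± 50.3 and 142 ± 61.2 CPM. The populations also differed in markers of other cells. The summed level of 14 erythroid markers was 3010.2 to 3756 CPM in double-positive cells, 18303 to 21601 in single-positive cells and 38228 to 60947 in double-negative cells. Of these, 13 were lower in double-positive cells than in double-negative cells. For 12 neutrophil markers the sums were 98.5 to 6232, 506 to 3842 and 3966 to 17679 CPM, with a wide spread inside each population. Sums of 12 B-lineage markers were 5.12 to 31.6, 17.7 to 55.0 and 112 to 278 CPM, and 12 of them were lower in double-positive cells than in double-negative cells. Sums of 12 monocyte and macrophage markers were 12.6 to 112, 15.97 to 53.1 and 183 to 209 CPM, and 4 of them were lower in double-positive cells than in double-negative cells. The 12 T and NK cell markers summed to 65.6 to 81.6, 11.6 to 23.4 and 31.9 to 54.9 CPM. Of the 11 tested, 1 was higher and 7 lower in double-positive cells than in double-negative cells, so the sums do not follow most of these markers. The 9 mast cell and basophil markers summed to 1132 to 2180.2, 759 to 839 and 1247 to 1555 CPM, with 3 higher and 2 lower in the same comparison. Among all tested genes, 39.7% were higher and 27.7% lower in that comparison. None of the listed markers with a row had 0 counts in every library. The part of these cells in the differences below was not tested, and in bulk samples fewer cells of a type and less RNA per cell cannot be told apart.

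CPM and log2 fold changes are scaled by TMM, which allows for differences in composition between libraries. Each fold change is the first-named population minus the second. The scaling bears on every level. With TMM the median gene of all 12573 differed by 0.19 between double-positive and double-negative cells, with DESeq2-type size factors by -0.047, and with plain library totals by 1.11. The median of the 44 repair genes in that comparison was 1.43, 1.19 and 2.32 under the same scalings. The 44 genes together took 2244 to 2585 CPM of the plain library totals in double-positive cells, 1399 to 1640.4 in single-positive cells and 409 to 653 in double-negative cells. Genes were tested with edgeR (quasi-likelihood), and one was called when its p, adjusted over all tested genes, was under 0.05.

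Double-positive cells held more transcript of most of these repair genes than double-negative cells. Between these populations 36 of the 44 genes were higher in double-positive cells and 2 lower, where 39.7% of all tested genes were higher and 27.7% lower, 67.4% in all. The median difference of the 44 was 1.43 on the log2 scale against 0.19 for all tested genes. The largest differences of the 44 were in Xrcc5 (log2 fold change 2.30 ± 0.28 SE, adjusted p = 0.000131), a subunit of the Ku ring that holds broken ends, and in Atr (2.28 ± 0.38 SE, adjusted p = 0.000681), the kinase that answers stalled replication forks. The genes that were lower were Chek2 (-1.14, adjusted p = 0.000370), a checkpoint kinase, and Xpa (-0.93, adjusted p = 0.00490), a nucleotide excision factor. Between single-positive and double-negative cells, 29 of 44 were higher in single-positive cells and 2 lower, against 31% and 20.9% of all tested genes (51.9% together), with a median of 1.02 against 0.13. The genes lower there were Chek2 and Xpc. That count was 0 without library 3 of single-positive cells and with library totals. It was 1 without library 1 or 2 of double-positive cells, library 1 or 2 of single-positive cells, or library 2 or 3 of double-negative cells. With same-numbered libraries of these 2 populations as blocks, 34 were higher. That pairing was chosen from these same data, so calls gained with the block, here and below, are tentative. Library values of double-positive and double-negative cells did not overlap for 39 of the 44 genes, 37 of them higher and 2 lower in double-positive cells, against 42.7% and 30.5% of all tested genes. In a joint test over the 3 populations 39 of 44 were called, against 74.8% of all tested genes. The population means ran double-positive cells above single-positive cells above double-negative cells for 27 genes, single-positive cells came highest and double-negative cells lowest for 11, single-positive cells came lowest for 4, and 2 ran in the reverse order of the first.

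Between double-positive and single-positive cells fewer of the 44 genes were called. There, 9 were higher in double-positive cells and 3 lower, against 19.7% and 20.1% of all tested genes (39.8% together), so the share called higher was close to that of the whole table. The median was 0.46 against 0.013. The higher genes were Atr, Atm, Xrcc5, Xpc, Apex1, Exo1, Msh6, Parp1 and Xrcc6, and the lower ones Chek2, Fancc and Xpa. This count depended on single libraries: it was 16 higher without library 3 of double-positive cells, whose neutrophil markers summed to 6232 CPM, and 27 higher when 3 libraries were left out together, in each population the one with the lowest correlation to its fellows (library 3 of double-positive cells and library 1 of the other 2). With library totals it was 17, and in a fit of these 2 populations alone 14. The number lower was 0 without library 1 of double-positive cells, 0 without library 1 of single-positive cells, 1 without library 2 of double-positive cells and 1 with library totals.

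**Figure D1:**
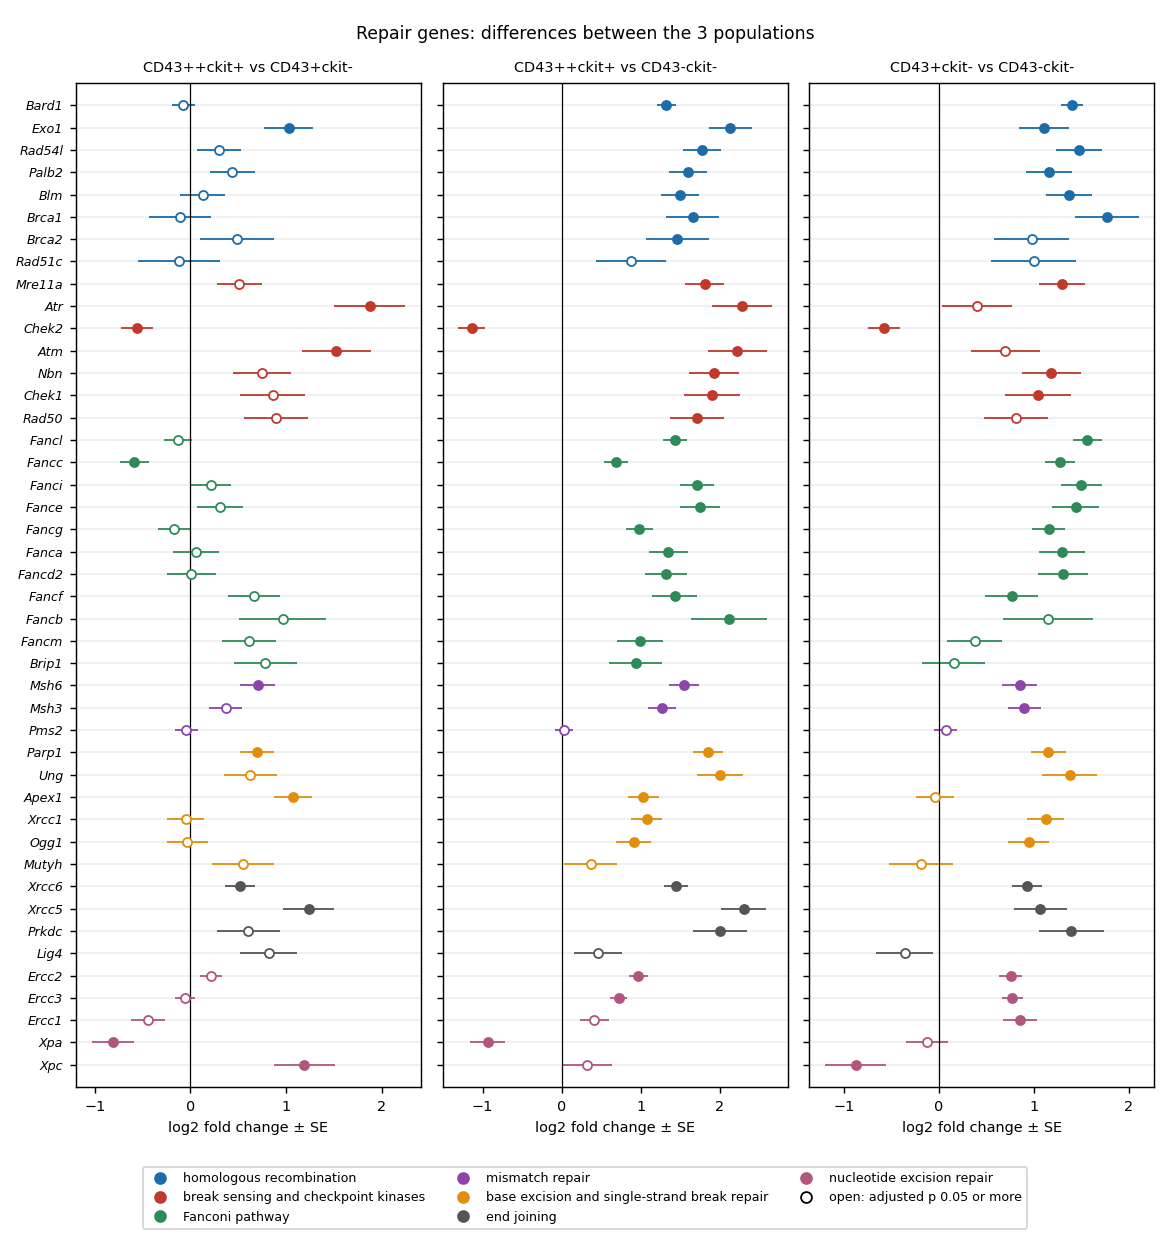
Log2 fold change ± SE of the 44 repair genes in the 3 comparisons, coloured by role; filled points have an adjusted p under 0.05 (edgeR). Most points lie to the right of 0 in both comparisons with double-negative cells, and around 0 for many recombination and Fanconi genes between double-positive and single-positive cells.

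Promoter sequences are shown because most of these genes differed in the same direction from double-negative cells, and because E2F factors, which drive genes of S phase, are known to act at many repair promoters. RefSeq promoters (build GRCm38.p6, 250 bases before to 50 after the start site) were matched by symbol or synonym for 37 of the 44 genes. Letters of E2F sites (TTTGGCGC, TTTCCCGC, TTTCGCGC or TTTGCCGC, on either strand) were found for 8 of them, 21.6%, against 4.61% of 9535 tested genes with a promoter in the table and 2.26% of all 32851 promoters. CCAAT was found for 24 (64.9%, against 42.8% of tested genes) and TTTGAA for 1 (2.70% against 14.2%). A match describes letters in a window and is not a binding site, and in Msh3 TTTGGCGC overlaps TTTCGCGC of the other strand. Stretches of the promoters of 7 of the 8 genes follow, 5′ to 3′ on the strand of the gene, with the E2F letters in capitals (GCGGGAAA is TTTCCCGC on the other strand); Rad51c, which has more than 1 promoter in the table, is left out.
Bard1 (chr1:71103114-71103222, minus strand): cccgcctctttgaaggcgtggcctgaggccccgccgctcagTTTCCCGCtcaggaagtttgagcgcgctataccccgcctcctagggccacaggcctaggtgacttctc
Brca2 (chr5:150522393-150522520, plus strand): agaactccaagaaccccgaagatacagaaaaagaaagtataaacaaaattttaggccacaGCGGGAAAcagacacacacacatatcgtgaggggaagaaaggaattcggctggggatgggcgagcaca
Fancg (chr4:43010286-43010413, minus strand): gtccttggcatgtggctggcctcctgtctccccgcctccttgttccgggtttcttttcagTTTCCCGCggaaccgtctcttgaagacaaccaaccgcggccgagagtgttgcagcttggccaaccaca
Msh3 (chr13:92355134-92355253, minus strand): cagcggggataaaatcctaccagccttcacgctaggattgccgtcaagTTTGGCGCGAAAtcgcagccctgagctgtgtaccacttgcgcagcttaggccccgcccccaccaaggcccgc
Msh6 (chr17:87975005-87975099, plus strand): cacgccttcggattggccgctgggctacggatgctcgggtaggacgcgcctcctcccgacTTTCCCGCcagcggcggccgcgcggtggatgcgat
Xrcc6 (chr15:82016263-82016390, plus strand): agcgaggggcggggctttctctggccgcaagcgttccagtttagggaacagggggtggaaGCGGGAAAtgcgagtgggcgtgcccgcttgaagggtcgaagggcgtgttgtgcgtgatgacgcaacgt
Chek2 (chr5:110839771-110839898, plus strand): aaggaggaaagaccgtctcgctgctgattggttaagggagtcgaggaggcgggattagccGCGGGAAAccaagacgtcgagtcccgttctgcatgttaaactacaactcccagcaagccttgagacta
The first 6 of these genes were higher in double-positive cells than in double-negative cells (log2 fold change 0.98 to 1.55), while Chek2, with the same letters, was lower (-1.14).

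The medians of the 8 genes with E2F letters and of the 29 matched genes without them were 1.30 and 1.43 for double-positive cells against double-negative cells. For single-positive cells against double-negative cells they were 0.95 and 1.07, and for double-positive cells against single-positive cells 0.15 and 0.44. The median with the letters was the lower one in each comparison. No test compared genes with and without the letters, and the part of E2F factors in these differences was not tested.

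Levels were compared between genes per kilobase of exon, with lengths from GENCODE M21. Parp1, which senses single-strand breaks, was the most abundant of the 44 in double-positive cells at 81.6 ± 9.23 CPM per kb (SD, n = 3) and in single-positive cells at 50.4 ± 5.77, and stood second in double-negative cells at 22.7 ± 5.04. Chek2 took the first place in double-negative cells at 66.1 ± 16.3 CPM per kb, from 30.1 ± 2.33 in double-positive cells and 44.3 ± 2.30 in single-positive cells. Fance, a bridge between the Fanconi core and FANCD2, stood at 44.3 ± 2.64, 35.8 ± 3.18 and 13.2 ± 4.94 CPM per kb in the same order. At the other end, Rad51c and Lig4 stayed below 1 CPM per kb in all populations. In double-positive cells Rad51c was at 0.583 ± 0.114 and Lig4 at 0.633 ± 0.192, which do not differ beyond their spread. The large kinase genes were low per kb: Prkdc had 3.44 ± 1.25 and Atm 4.49 ± 1.86 CPM per kb in double-positive cells.

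**Figure D2:**
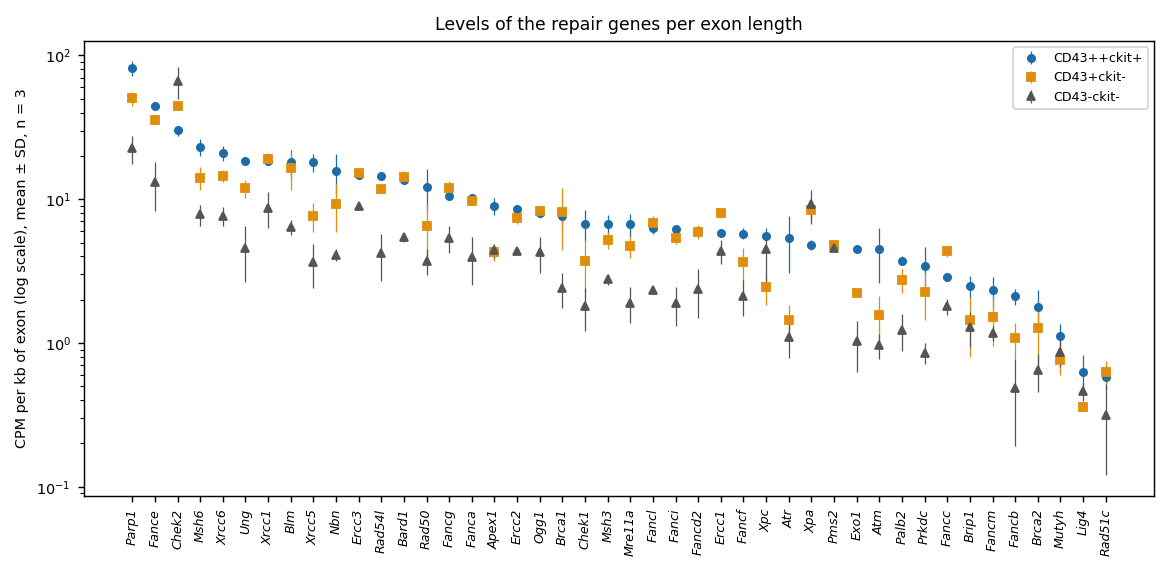
Mean ± SD (n = 3) CPM per kb of exon for the 44 genes on a log axis, ordered by the level in double-positive cells. The grey triangles of double-negative cells lie lowest for most genes, and highest for Chek2 and Xpa.

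Among the 8 homologous recombination genes, double-negative cells stood apart from both other populations. In double-positive cells 7 of 8 were higher than in double-negative cells (median 1.55), against 39.7% of all tested genes. In single-positive cells 6 of 8 were higher than in double-negative cells (median 1.26), against 31%. Between double-positive and single-positive cells only Exo1 was called, where 19.7% of all tested genes were higher and 20.1% lower. Bard1, the partner of BRCA1 in a ubiquitin ligase, stood at 80.3, 77.1 and 74.1 CPM in the double-positive libraries, 85.5, 71.8 and 86.5 in single-positive cells and 28.4, 31.1 and 32.9 in double-negative cells. The double-negative values lay below every other library, and the other 2 populations overlapped (log2 fold change 1.33 ± 0.12 SE, adjusted p = 2.61e-05, against double-negative cells for double-positive cells, and -0.074 ± 0.12 SE, adjusted p = 0.661, between double-positive and single-positive cells). Exo1, the exonuclease that widens breaks for recombination and mismatch excision, stood at 35.0, 37.7 and 33.1 CPM in the double-positive libraries, 17.0, 16.9 and 18.1 in single-positive cells and 4.399, 9.69 and 9.98 in double-negative cells. No population overlapped another for Exo1, and it differed in each comparison (1.03, adjusted p = 0.0124 for double-positive cells against single-positive cells, and 1.11, adjusted p = 0.00797 for single-positive cells against double-negative cells).

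Rad54l, a motor protein of DNA strand pairing, stood at 47.3, 46.5 and 41.6 CPM in the double-positive libraries, 37.5, 34.9 and 37.4 in single-positive cells and 8.01, 17.3 and 14.1 in double-negative cells. Palb2, which ties BRCA1 to BRCA2, stood at 14.1, 16.03 and 14.2 CPM in the double-positive libraries, 12.4, 8.55 and 11.8 in single-positive cells and 3.77, 6.48 and 4.38 in double-negative cells. Both were higher in double-positive cells than in double-negative cells (1.77, adjusted p = 0.000225, and 1.60, adjusted p = 0.000417), and in both library 1 of double-negative cells was the lowest of the 9 libraries. Of the 50-base words of Rad54l, 12.3% also occur in transcripts of other genes, so its counts are less certain. Brca1 was at 1.77, adjusted p = 0.00254 for single-positive cells against double-negative cells, and Blm, a helicase that dissolves crossed strands, at 1.37, adjusted p = 0.00191. Brca1 varied widely inside single-positive cells, at 81.6, 32.9 and 47.4 CPM. Between double-positive and single-positive cells its value was -0.11, adjusted p = 0.823, and 0.38 (adjusted p = 0.0427) when the 3 least correlated libraries were left out. Brca2, a mediator of strand exchange, was higher in double-positive cells than in double-negative cells (1.46, adjusted p = 0.00929), and its difference between single-positive and double-negative cells missed the threshold (0.98, adjusted p = 0.0620; adjusted p = 0.00109 with same-numbered libraries as blocks). Rad51c, a recombination mediator with 7 to 120 counts per library, was not called in any comparison, and between single-positive and double-negative cells the block moved its adjusted p from 0.0885 to 0.00834.

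The genes of break sensing and checkpoint signalling were lower in double-negative cells than in double-positive cells, except for Chek2. Of 7 genes, 6 were higher in double-positive cells than in double-negative cells and 1 lower, with a median of 1.90. Of all tested genes, 39.7% were higher and 27.7% lower there. Atr stood at 52.4, 56.5 and 22.6 CPM in the double-positive libraries, 14.8, 8.65 and 12.4 in single-positive cells and 6.13, 10.01 and 10.9 in double-negative cells. Atm, the kinase that answers double-strand breaks, stood at 49.9, 60.6 and 24.3 CPM in the double-positive libraries, 21.3, 10.4 and 15.2 in single-positive cells and 7.54, 10.3 and 11.1 in double-negative cells. In both, library 3 of double-positive cells was far below libraries 1 and 2, yet above every single-positive library. Atr and Atm were higher in double-positive cells than in single-positive cells (1.87, adjusted p = 0.00402, and 1.52, adjusted p = 0.00921). Between single-positive and double-negative cells neither was called (0.40, adjusted p = 0.365, and 0.70, adjusted p = 0.129), and Atm was called there with same-numbered libraries as blocks (0.0112).

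Mre11a, the nuclease of the complex that first binds a break, stood at 40.1, 44.8 and 30.9 CPM in the double-positive libraries, 31.4, 22.3 and 27.3 in single-positive cells and 7.54, 13.4 and 12.1 in double-negative cells. It was higher in both double-positive and single-positive cells than in double-negative cells (1.81, adjusted p = 0.000221, and 1.29, adjusted p = 0.00244). Its partners were also higher in double-positive cells than in double-negative cells: Nbn, the adaptor that recruits ATM, by 1.93, adjusted p = 0.000604, and Rad50, the ATPase that tethers ends, by 1.71, adjusted p = 0.00189. Between single-positive and double-negative cells Nbn was called (1.18, adjusted p = 0.0121), while Rad50 was not called, and was called with the block (0.81, adjusted p = 0.0677 without and 0.000564 with it). Chek1, the kinase that acts after ATR, was higher in double-positive cells than in double-negative cells (1.90, adjusted p = 0.00120). Against double-negative cells it was also higher in single-positive cells (1.04, adjusted p = 0.0319). This did not pass without library 1 or 3 of single-positive cells (adjusted p = 0.101 and 0.0632), without library 1 or 3 of double-negative cells (0.0918 and 0.0783) and with DESeq2-type size factors (0.0718).

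Chek2, the kinase that acts after ATM, ran against the other 6. It stood at 69.5, 73.2 and 62.7 CPM in the double-positive libraries, 103, 95.04 and 105 in single-positive cells and 193, 133 and 126 in double-negative cells. The 3 populations did not overlap, and the values rose from double-positive cells to double-negative cells (-1.14 ± 0.17 SE, adjusted p = 0.000370, for double-positive cells against double-negative cells). With library totals it was -0.20 (adjusted p = 0.126). For single-positive cells against double-negative cells it was -0.58, adjusted p = 0.0190, and 0.10 with library totals, where the sign turned; without library 3 of single-positive cells the adjusted p was 0.0524. For double-positive cells against single-positive cells it was -0.56, adjusted p = 0.0263. It did not pass without any 1 of the double-positive libraries (adjusted p = 0.0752, 0.0561 and 0.0619), without library 1 or 3 of single-positive cells (0.0658 and 0.0805) and with library totals (0.0513). Its share of the counts of all 44 repair genes, which no scaling changes, was 3.61%, 3.63% and 3.94% in the double-positive libraries, 6.61%, 7.40% and 7.29% in single-positive cells and 27.9%, 16.02% and 14.9% in double-negative cells. Those shares did not overlap between populations. They also rise where the other repair genes fall, and most of these were lower in double-negative cells. The shares therefore place Chek2 relative to the other repair genes and do not show a rise of Chek2 by itself.

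**Figure D3:**
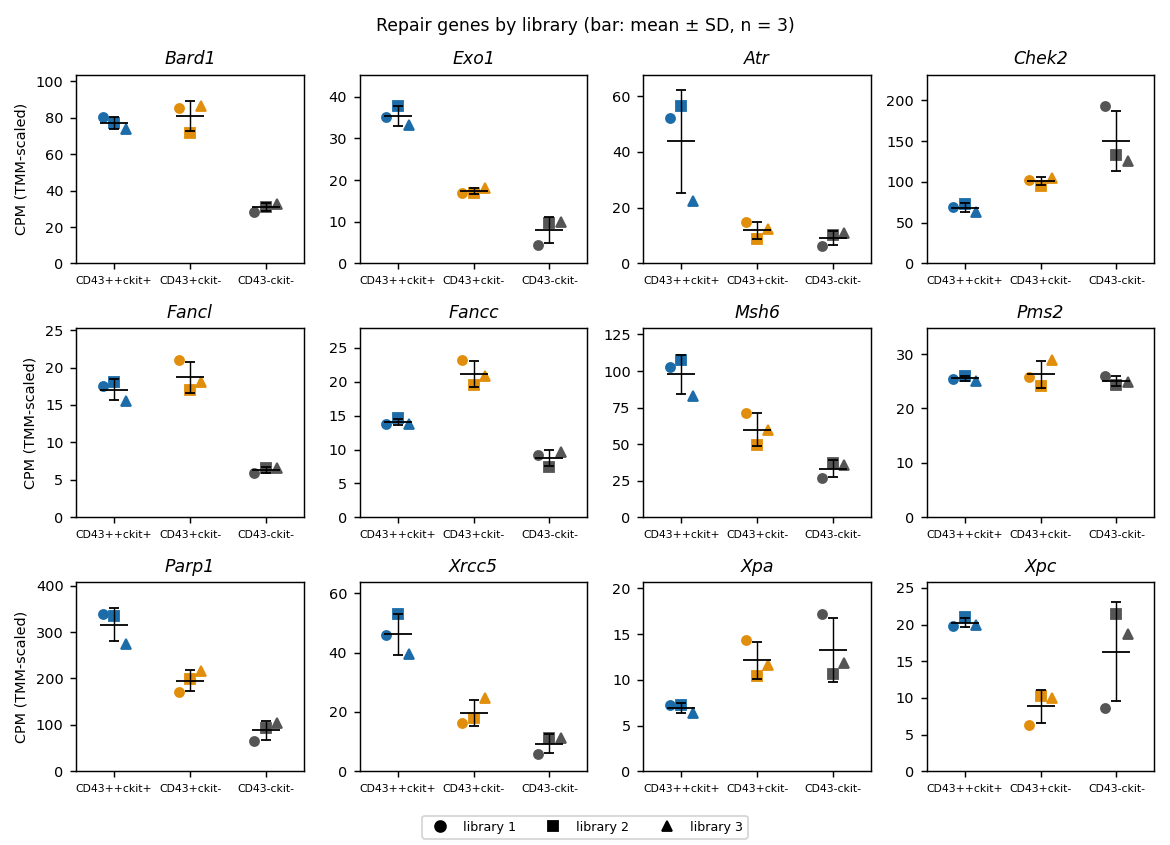
TMM-scaled CPM of 12 repair genes in each library (symbols), with the mean ± SD of the 3 libraries of a population (bars); each panel has its own axis from 0. Bard1 and Fancl separate double-negative cells from both others, Exo1 and Parp1 fall in steps, Pms2 is level, and Chek2 and Xpa are lowest in double-positive cells.

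All 11 genes grouped under the Fanconi pathway were higher in double-positive cells than in double-negative cells (median 1.35, range 0.69 to 2.11). Of all tested genes, 39.7% were higher there. In single-positive cells 8 of 11 were higher than in double-negative cells (median 1.27), against 31% of all tested genes. Between double-positive and single-positive cells the edgeR test called 0 genes higher and 1 lower, against 19.7% and 20.1% of all tested genes. DESeq2 also called 0 and 1, and at an unadjusted p under 0.05 edgeR counted 2 and 1. The 0 depended on libraries and settings: Fancm and Brip1 were called higher in double-positive cells without library 1 of single-positive cells (adjusted p = 0.0267 and 0.0147) and with library totals (0.0383 and 0.0453). Fancm was called without library 3 of double-positive cells (0.0461), Fancb and Fancf without library 1 of double-negative cells (0.0223 and 0.0436), and Fancb and Fance in a fit of these 2 populations alone (0.0253 and 0.0354). All 5 were called when the 3 least correlated libraries were left out (adjusted p from 2.36e-07 to 0.0316). Fancl, the ligase subunit that attaches ubiquitin to FANCD2 and FANCI, stood at 17.5, 18.1 and 15.5 CPM in the double-positive libraries, 21.0, 16.9 and 18.1 in single-positive cells and 5.89, 6.54 and 6.53 in double-negative cells. Its double-negative values were below every other library, and the other 2 populations overlapped (1.43 ± 0.15 SE, adjusted p = 6.59e-05, and 1.56 ± 0.15 SE, adjusted p = 0.000114, against double-negative cells). Fanci, a substrate of that ligase, stood at 29.7, 32.4 and 30.3 CPM in the double-positive libraries, 28.4, 23.9 and 27.5 in single-positive cells and 6.13, 11.2 and 10.8 in double-negative cells. It was higher in double-positive cells and in single-positive cells than in double-negative cells (1.71, adjusted p = 0.000162, and 1.5, adjusted p = 0.000707). Fance stood at 96.0, 87.3 and 86.2 CPM in the double-positive libraries, 71.2, 79.5 and 66.8 in single-positive cells and 16.2, 27.8 and 36.1 in double-negative cells. It followed the same pattern (1.75, adjusted p = 0.000277, and 1.44, adjusted p = 0.00155), with library 1 of double-negative cells the lowest. Exon bases of Fancl and Fanci overlap the genes Vrk2 and Polg over 17.0% and 13.4% of their length, and 16.3% of the 50-base words of Fancc and 12.4% of those of Fancf also occur in transcripts of other genes, so their counts are less certain.

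Fancc, a core complex member, was highest in single-positive cells. It stood at 13.8, 14.7 and 13.8 CPM in the double-positive libraries, 23.2, 19.5 and 20.8 in single-positive cells and 9.19, 7.46 and 9.62 in double-negative cells, and the 3 populations did not overlap. Double-positive cells lay below single-positive cells (-0.59, adjusted p = 0.0130) and above double-negative cells (0.69, adjusted p = 0.00332). The first of these calls was lost without library 1 of double-positive cells (adjusted p = 0.0575), without library 1 of single-positive cells (0.0519) and with library totals (0.168). Fancg, Fanca and Fancd2 were each higher in single-positive cells than in double-negative cells (1.15, adjusted p = 0.000862, 1.29, adjusted p = 0.00256, and 1.31, adjusted p = 0.00335) and not called between double-positive and single-positive cells (-0.17, 0.057 and 0.0090). Fancb, another core member, had 6 to 273 counts per library and was higher in double-positive cells than in double-negative cells (2.11, adjusted p = 0.00378); between single-positive and double-negative cells its adjusted p was 0.0668, and 0.00204 with the block. Fancf was higher in single-positive cells than in double-negative cells (0.77, adjusted p = 0.0440), a call that was lost under 10 of 18 other settings, among them the leaving out of library 1 or 2 of double-positive cells, library 2 or 3 of single-positive cells or library 1 or 2 of double-negative cells (adjusted p from 0.0571 to 0.200). Fancm, which anchors the core complex to DNA, and Brip1, a helicase partner of BRCA1, were higher in double-positive cells than in double-negative cells (0.99, adjusted p = 0.0133, and 0.94, adjusted p = 0.0329) and not called between single-positive and double-negative cells (0.38 and 0.15). The Brip1 call was lost under 7 of 18 other settings. Among them were the leaving out of library 1 or 2 of double-positive cells (0.0713 and 0.0852) and library 1 or 2 of double-negative cells (0.0952 and 0.0545). The call was also lost with DESeq2 (0.0622), with DESeq2-type size factors and with the strict filter (at least 1 CPM in all 9 libraries). Without the least correlated libraries Brip1 was lower in single-positive cells than in double-negative cells (-0.47, 0.0198).

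In mismatch repair the mismatch binders differed between populations and the nuclease subunit was level under TMM scaling. Msh6, the subunit that recognises base mispairs, stood at 103, 108 and 82.8 CPM in the double-positive libraries, 71.4, 49.3 and 59.4 in single-positive cells and 26.8, 37.1 and 36.0 in double-negative cells. Its populations did not overlap, and it was higher in double-positive cells than in single-positive cells (0.70, adjusted p = 0.0145) and double-negative cells (1.55, adjusted p = 0.000127); the first call was lost without library 1 or 2 of double-positive cells (adjusted p = 0.0519 and 0.0548). Msh3, which recognises larger loops, stood at 28.5, 30.7 and 22.4 CPM in the double-positive libraries, 22.8, 17.7 and 22.7 in single-positive cells and 10.4, 11.0 and 12.4 in double-negative cells. It was higher in both other populations than in double-negative cells (1.27, adjusted p = 0.000229, and 0.90, adjusted p = 0.00273). Pms2, which nicks the strand to be corrected, stood at 25.5, 26.0 and 24.99 CPM in the double-positive libraries, 25.8, 24.1 and 28.9 in single-positive cells and 25.9, 24.2 and 24.9 in double-negative cells. All 9 Pms2 values lay between 24.1 and 28.9 CPM, and its difference between double-positive and double-negative cells was 0.028 ± 0.12 SE, adjusted p = 0.839. With library totals that difference was 0.94 (adjusted p = 0.000337), close to the shift of all genes under that scaling.

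Of 6 genes of base excision and single-strand break repair, 5 were higher in double-positive cells than in double-negative cells (median 1.05). The share of all tested genes higher there was 39.7%. Parp1 stood at 339, 334 and 275 CPM in the double-positive libraries, 171, 199 and 215 in single-positive cells and 66.1, 93.7 and 104 in double-negative cells. Its populations did not overlap, and double-positive cells lay above single-positive cells (0.70, adjusted p = 0.0143) and single-positive cells above double-negative cells (1.15, adjusted p = 0.00115); the first call was lost without library 1 of double-positive cells or of single-positive cells (adjusted p = 0.0541 and 0.0549). Ung, which removes uracil from DNA, stood at 48.2, 48.9 and 44.5 CPM in the double-positive libraries, 35.7, 28.5 and 27.5 in single-positive cells and 6.21, 13.5 and 15.5 in double-negative cells. It had the largest difference of this role between double-positive and double-negative cells (2.003 ± 0.29 SE, adjusted p = 0.000323). Xrcc1, the scaffold of single-strand break repair, stood at 45.6, 44.3 and 49.7 CPM in the double-positive libraries, 51.0, 50.6 and 42.8 in single-positive cells and 15.9, 21.9 and 28.4 in double-negative cells. Its values overlapped between double-positive and single-positive cells (-0.049, adjusted p = 0.871) and were higher in both than in double-negative cells (1.07, adjusted p = 0.00114, and 1.12, adjusted p = 0.00178).

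Apex1, the endonuclease that cuts at sites without a base, stood at 10.2, 12.9 and 10.4 CPM in the double-positive libraries, 4.64, 5.97 and 5.29 in single-positive cells and 5.34, 4.91 and 6.10 in double-negative cells. It was higher in double-positive cells than in both others (1.07, adjusted p = 0.00296, against single-positive cells, and 1.03, adjusted p = 0.00158, against double-negative cells), which overlapped. In GENCODE M21, 70.8% of Apex1 exon bases overlap another gene, mainly Pip4p1 on the other strand, so part of its reads may have been assigned elsewhere or left out. Ogg1, which removes oxidised guanine, was higher in double-positive and single-positive cells than in double-negative cells (0.91, adjusted p = 0.00507, and 0.94, adjusted p = 0.00664). Mutyh, which removes adenine paired with oxidised guanine, was counted at no more than 2.21 CPM and was not called in any comparison.

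Among the end joining genes, both Ku subunits fell from double-positive cells to single-positive cells to double-negative cells. Xrcc5 stood at 45.8, 53.0 and 39.5 CPM in the double-positive libraries, 16.1, 18.1 and 24.6 in single-positive cells and 5.66, 11.2 and 11.1 in double-negative cells. Xrcc6, the other Ku subunit, stood at 77.4, 70.5 and 60.5 CPM in the double-positive libraries, 44.0, 47.9 and 53.6 in single-positive cells and 21.1, 26.9 and 28.4 in double-negative cells. No population overlapped another for either gene. Between double-positive and single-positive cells the estimates were higher for Xrcc5 than for Xrcc6 (1.23 ± 0.27 SE, adjusted p = 0.00629, and 0.52 ± 0.15 SE, adjusted p = 0.0249), and that difference between the genes was not tested. The Xrcc6 call between these populations was lost without library 1 or 2 of double-positive cells (adjusted p = 0.101 and 0.0749) and without library 1 or 2 of single-positive cells (0.0859 and 0.0626). Prkdc, the kinase that Ku recruits, stood at 48.3, 56.2 and 25.8 CPM in the double-positive libraries, 39.6, 19.2 and 26.7 in single-positive cells and 8.80, 12.3 and 11.4 in double-negative cells. Double-positive and single-positive cells overlapped for Prkdc, and both were above double-negative cells (2.002, adjusted p = 0.000784, and 1.39, adjusted p = 0.00829). Lig4, the ligase that seals the ends, stood at 3.43, 4.21 and 2.23 CPM in the double-positive libraries, 1.98, 1.78 and 1.83 in single-positive cells and 2.44, 2.03 and 2.73 in double-negative cells. Its double-positive values lay above those of single-positive cells, and that difference missed the threshold (0.82, adjusted p = 0.0552). It passed without library 3 of double-positive cells (adjusted p = 0.0126), with the 3 least correlated libraries left out (0.000771), with library totals (0.0205), with the strict filter (0.0175) and with DESeq2 (0.0440). Against double-negative cells the values were 0.46, adjusted p = 0.196, for double-positive cells and -0.36, adjusted p = 0.325, for single-positive cells, neither called.

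Nucleotide excision genes did not move together. Ercc2, a helicase of the TFIIH complex, stood at 30.3, 32.0 and 30.1 CPM in the double-positive libraries, 25.9, 29.1 and 24.5 in single-positive cells and 15, 16.1 and 16.1 in double-negative cells. Ercc3, the other TFIIH helicase, stood at 40.8, 41.8 and 37.1 CPM in the double-positive libraries, 41.8, 40.9 and 41.6 in single-positive cells and 25.1, 24.7 and 23.0 in double-negative cells. Both were higher in double-positive and single-positive cells than in double-negative cells (for double-positive cells, 0.97, adjusted p = 0.000147, and 0.72, adjusted p = 0.000387). For Ercc2, 34.8% of exon bases overlap other annotated genes, so its counts are less certain. Ercc1, part of a nuclease that cuts beside the lesion, stood at 10.7, 10.2 and 10.6 CPM in the double-positive libraries, 15.1, 14.6 and 13.1 in single-positive cells and 6.21, 8.25 and 9.19 in double-negative cells. It was highest in single-positive cells and was called there against double-negative cells (0.86, adjusted p = 0.00440) but not against double-positive cells (-0.44, adjusted p = 0.0781).

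Xpa, which checks the lesion and holds the other factors, stood at 7.22, 7.19 and 6.32 CPM in the double-positive libraries, 14.4, 10.5 and 11.6 in single-positive cells and 17.2, 10.6 and 11.8 in double-negative cells. It was lower in double-positive cells than in single-positive cells (-0.81, adjusted p = 0.0171) and double-negative cells (-0.93, adjusted p = 0.00490). The first call was lost without library 1 or 2 of double-positive cells or library 1 of single-positive cells (adjusted p = 0.0516, 0.0511 and 0.0611), and with library totals the second difference was 0.0055 (adjusted p = 0.979). Xpc, the sensor of bulky lesions, was chosen for its values after they were seen. It stood at 19.9, 21.0 and 20.0 CPM in the double-positive libraries, 6.29, 10.3 and 10.03 in single-positive cells and 8.64, 21.5 and 18.7 in double-negative cells. Single-positive cells lay below double-positive cells (1.19, adjusted p = 0.0162), a call lost without library 1 of single-positive cells (adjusted p = 0.0509). Single-positive cells also lay below double-negative cells (-0.88, adjusted p = 0.0454), although library 1 of double-negative cells overlapped it. Leaving out library 1 or 2 of double-positive cells, any 1 library of single-positive cells, or library 2 or 3 of double-negative cells ended that call (adjusted p from 0.0583 to 0.167).

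The comparisons form 2 steps, from double-positive cells to single-positive cells and from single-positive cells to double-negative cells. For each gene the fold change of the second step minus that of the first was tested in the same edgeR fit, a test chosen after the data were seen. The difference is signed, so it does not compare the sizes of steps that run in opposite directions. It was called above 0 for 11 of the 44 genes and below 0 for 2, against 18% and 10.5% of all tested genes. By sign alone it was above 0 for 33 of the 44, and for 6480 of all 12573 tested genes. The 11 called above 0 included 3 of 8 recombination genes (Bard1, Brca1 and Blm) and 5 of 11 Fanconi genes (Fancc, Fancl, Fancg, Fanci and Fanca). The others were Xrcc1, Ercc1 and Ercc3. All 11 fell in the second step, by 0.77 to 1.77. In the first step Fancc ran the other way (-0.59), and the other 10 were not called (from -0.44 to 0.21). The signed difference was 1.47 ± 0.20 SE, adjusted p = 0.00185, for Bard1, 1.86 ± 0.25 SE, adjusted p = 0.00188, for Fancc and 1.69 ± 0.25 SE, adjusted p = 0.00247, for Fancl. It was called below 0 for Apex1 (-1.11 ± 0.35 SE, adjusted p = 0.0422), whose steps were 1.07 and -0.040. Xpc was the other gene called below 0 (-2.07 ± 0.58 SE, adjusted p = 0.0270), with steps in opposite directions (1.19 and -0.88). For break sensing and end joining genes the test called 0 in either direction, with 1 gene below 0 at an unadjusted p under 0.05; DESeq2 called 10 above and 3 below 0 over all 44. The count called above 0 ran from 5 without library 1 or library 2 of single-positive cells to 15 without library 1 of double-negative cells. It was 6 without library 1 of double-positive cells and 7 without library 3 of single-positive cells. The count called below 0 was 0 without library 1 of double-positive cells or any 1 library of single-positive cells. It was also 0 without library 2 or 3 of double-negative cells. It was 1 without library 2 of double-positive cells, 4 without library 3 of double-positive cells and 10 when the 3 least correlated libraries were left out.

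**Figure D4:**
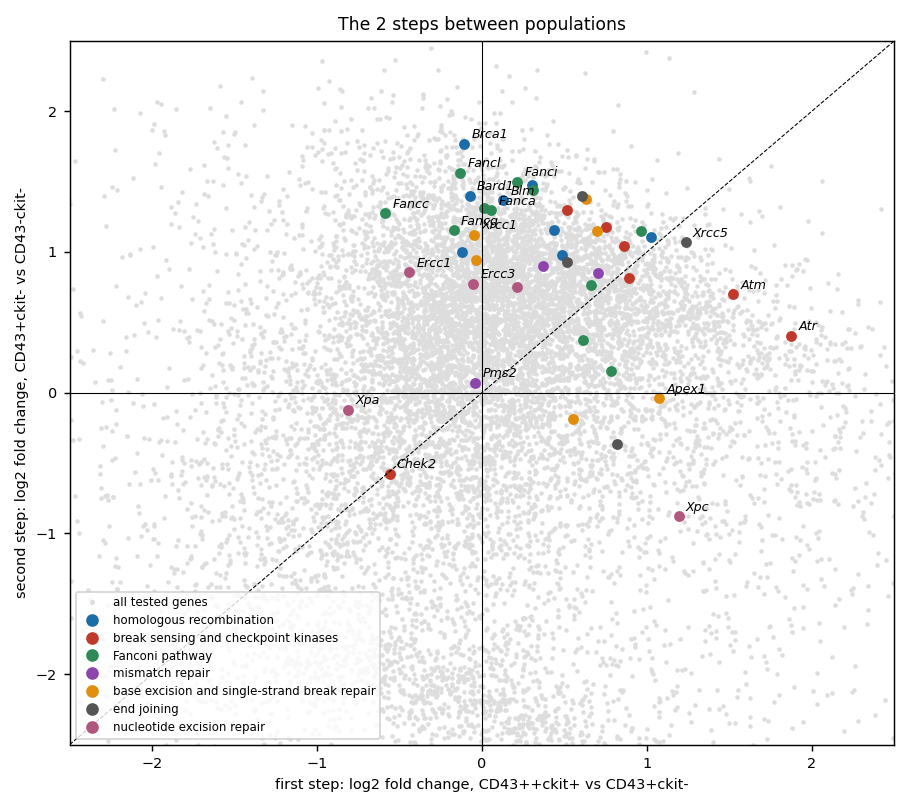
Log2 fold change of the first step (x, double-positive cells against single-positive cells) and the second step (y, single-positive cells against double-negative cells) for the 44 repair genes by role and for all tested genes (grey; both axes end at 2.5, and genes beyond are not drawn). The axes share the single-positive libraries. Genes above the dashed diagonal have the higher signed fold change in the second step. Many Fanconi and recombination genes lie near x = 0, while Fancm, Fancf, Brip1, Fancb and Exo1 lie further right (0.61 to 1.03). Atr and Atm lie below the diagonal, as do Brip1, Fancm and genes of other roles.

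Part of the spread inside a population ran along the base composition of the genes. In library 3 of double-positive cells, Atr was -1.25 from the mean of libraries 1 and 2 on the log2(CPM + 0.5) scale, Atm -1.16 and Prkdc -1.0. In library 2 of single-positive cells the same 3 genes stood at -0.62, -0.76 and -0.74. For the 13 repair genes whose transcripts have under 45% GC, the median deviation was -0.60 and -0.72 in these 2 libraries, and -0.049 and 0.051 for the 16 with at least 50%. Across the 44 genes, Spearman's rho of the deviation with GC content was 0.74 and 0.76, and across all 12482 tested genes with a length 0.38 and 0.52. These are correlations across genes of the same libraries, and genes are not independent replicates. Neutrophil markers summed to 6232 CPM in library 3 of double-positive cells, against 365 and 98.5 in libraries 1 and 2. In single-positive cells they summed to 506, 3842 and 3079 CPM in libraries 1, 2 and 3. In library 1 of double-negative cells the repair genes had a median deviation of -0.52, against -0.023 for all genes, beside the highest erythroid marker sum of the series (60947 CPM). Between populations, rho of the log2 fold change with GC over the 44 genes was -0.35 for double-positive cells against single-positive cells, -0.39 for double-positive cells against double-negative cells and -0.066 for single-positive cells against double-negative cells. Over the 12482 genes it was -0.19, -0.11 and -0.0027. The part of base composition and of other cells in the differences between populations was not tested.

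**Figure D5:**
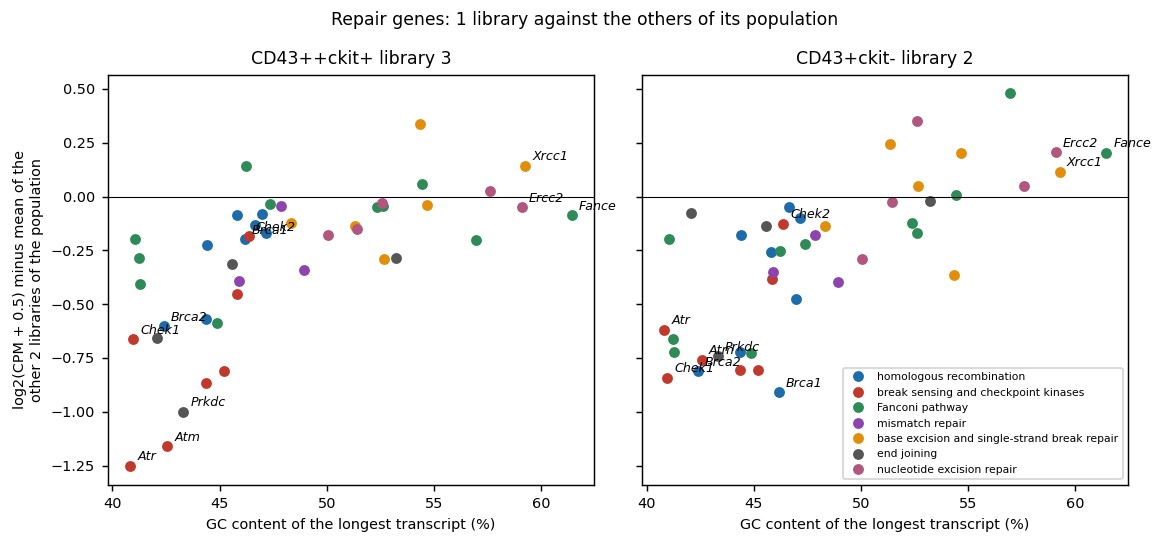
Deviation of library 3 of double-positive cells (left) and library 2 of single-positive cells (right) from the mean of the other 2 libraries of the population, in log2(CPM + 0.5), against transcript GC content for the 44 repair genes. Most points at low GC, among them Atr, Atm and Prkdc, lie well below 0. Fancl (-0.20 in both panels) and Rad51c (-0.23 and -0.18) lie nearer to it. Points at high GC scatter around 0, up to 0.48 for Fancf on the right.

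Repair genes outside the 44 were read from 3 further lists. Of 85 tested, 58 were higher in double-positive cells than in double-negative cells and 7 lower (median 0.96). Of all tested genes, 39.7% were higher there and 27.7% lower. Against single-positive cells, 11 were higher in double-positive cells and 14 lower (median 0.091), beside 19.7% and 20.1% of all tested genes. Between single-positive and double-negative cells, 53 were higher and 5 lower (median 0.86), beside 31% and 20.9% of all tested genes. Of 29 recombination and checkpoint genes, 23 were higher and 1 lower in double-positive cells than in double-negative cells. Atrip, the partner of ATR (1.41, adjusted p = 2.35e-05), and Rad1, part of the checkpoint clamp (1.67, 9.46e-05), were higher, and H2afx, the histone variant marked at breaks, was lower (-0.87, 0.00221; 0.042, adjusted p = 0.867 with library totals). H2afx was also lower in single-positive cells than in double-negative cells (-0.62, 0.0185; 0.024, adjusted p = 0.926 with library totals), while Atrip and Xrcc3, of recombination, were higher there (1.31 and 1.26). Against single-positive cells, double-positive cells had more Top3a (0.85) and Xrcc2 (0.88) and less Trp53bp1 (-0.99), which favours end joining, and Mus81 (-0.63; -0.35, adjusted p = 0.242 with library totals), a nuclease of crossed strands.

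Of 18 further Fanconi and crosslink genes, 12 were higher in double-positive cells than in double-negative cells, beside 39.7% of all tested genes. The lowest adjusted p were those of Faap24 (1.33, adjusted p = 0.000149) and Helq (1.60, 0.000372). The edgeR test called 0 lower, DESeq2 1, and edgeR 0 at an unadjusted p under 0.05. Polh, a polymerase that copies past lesions, and Helq were higher in single-positive cells than in double-negative cells (0.86 and 1.61). Faap100, of the core complex, was lower there (-0.58, adjusted p = 0.0149; 0.059, adjusted p = 0.803 with library totals). Between double-positive and single-positive cells, Faap100 (0.72) and Usp1, which removes the ubiquitin from FANCD2 (0.89), were higher and Mad2l2 lower (-0.37, adjusted p = 0.0393; -0.11, adjusted p = 0.590 with library totals). Of 38 further excision, mismatch and end joining genes, 23 were higher and 6 lower in double-positive cells than in double-negative cells. The shares over all tested genes were 39.7% and 27.7%. Lig3 and Parp2, of single-strand break repair, were higher (1.23 and 1.45). Ercc4 and Alkbh2 were higher in single-positive cells than in double-negative cells (1.08 and 1.40). Against single-positive cells, double-positive cells had more Lig3 (1.02) and Rad23b (1.04) and less Mpg (-1.05). Exons of Mpg, Lig3, Alkbh2, Trp53bp1 and H2afx overlap other annotated genes over 10.2% to 42.5% of their length, so their counts are less certain.

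Replication and mitosis genes are given beside the repair genes, since many repair genes are known to be made in dividing cells. Of 33 replication genes, 32 were higher and 1 lower in double-positive cells than in double-negative cells (median 1.46), and 32 were higher in single-positive cells than in double-negative cells (median 1.35). Of all tested genes, 39.7% were higher and 27.7% lower in the first of these comparisons, and 31% were higher in the second. The 28 mitosis genes had medians of 1.21 and 1.196 in these comparisons. Between double-positive and single-positive cells the medians were 0.089 for replication and 0.0094 for mitosis, beside 0.21 for recombination, 0.21 for Fanconi, 0.86 for break sensing and 0.71 for end joining genes. Summed replication transcripts stood at 4866 to 4987 CPM in double-positive cells, 4447 to 5480.3 in single-positive cells and 1464 to 2367 in double-negative cells. No test compared these lists with each other, and the part of cell division in the differences of the repair genes was not tested.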

How the data were processed

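RNA was measured by RNA-seq in 9 libraries, 3 of each sorted population. The authors deposited raw read counts, 1 whole number for each gene symbol and library, under an HTSeq title. The submitters' processing notes list CASAVA 1.8, TopHat2 2.0.4, RSEM, edgeR and HTSeq and say nothing of what each did. Those notes name a human genome build although the gene symbols are mouse, so the counts' build is uncertain; annotation and strand setting were not given in the sources used here, and overlapping genes are uncertain. Of 24391 gene rows, 6162 had 0 counts in every library. No pair of libraries of 1 sort matched within counting noise (chi-square over its degrees of freedom 15.2 to 117), and no deposit of the same library under 2 names was found; this does not tell separate animals from separate preparations, and each library was counted as 1 sample.

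Genes were filtered with filterByExpr (minimum count 10, minimum total 15), scaled by TMM (factors 0.589 to 1.41) and tested with edgeR 4.0.16 in R 4.3.3, by a robust quasi-likelihood fit of 3 population means over all 9 libraries. P-values were adjusted by Benjamini-Hochberg over 12573 genes in each comparison. The standard error is the log2 fold change divided by the square root of F. The code was tested on simulated counts. DESeq2 1.42.0, other scalings and filters, replicate blocks, fits of 2 populations and the leaving out of libraries were tried as alternatives. Exon length, GC content and overlaps came from GENCODE M21, by symbol, and serve as properties of the genes only.

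Same-numbered libraries of single-positive and double-negative cells deviated together from their population means (correlation across genes 0.525, 0.366 and 0.303, each above 0.1). Their numbers were therefore taken to pair them. However, library 2 of single-positive cells correlated with library 3 of double-negative cells at 0.343, and library 3 with library 2 at 0.349. How libraries 2 and 3 pair is thus not settled. Deviations within a population are not independent of each other. The pairing was also chosen from these same data, so calls gained with it are tentative. Correlations of same-numbered libraries were 0.447, -0.617 and 0.382 between double-positive and single-positive cells. They were 0.262, -0.318 and 0.252 between double-positive and double-negative cells, so no pairing was taken in these comparisons. The labels do not say what a number marks.

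The 44 genes, the lists of other genes and the tests were chosen with earlier results of these data known. Values per library are given for the 4 genes of each role with the lowest adjusted p in the joint test and for genes whose sign was opposite to the majority between double-positive and double-negative cells. Of each list of other repair genes, the 2 with the lowest adjusted p in each direction and comparison are named, at an average of at least 1 log2 CPM; some that this rule picks are not reported here.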

Additional observations from a re-analysis of the deposited data

How the results depend on the processing

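Of the calls among the 44 genes, 5 of 12 were kept under all 18 other settings for double-positive cells against single-positive cells, 34 of 38 for double-positive cells against double-negative cells, and 27 of 31 for single-positive cells against double-negative cells. With library totals, double-positive cells against single-positive cells had 17 repair genes higher and 1 lower, and neither comparison with double-negative cells had any lower (0); all tested genes were 7722 higher and 1669 lower for double-positive cells against double-negative cells, and 6865 and 1191 for single-positive cells against double-negative cells, and 0 repair genes had a signed step difference (second step minus first) called below 0. With only the 2 populations compared, 14 repair genes were higher for double-positive cells against single-positive cells and 1 was lower for single-positive cells against double-negative cells. Without a low-count filter that last count was also 1, and 1 gene had a signed step difference called below 0. With the 3 least correlated libraries left out together, a setting chosen after the data were seen, double-positive cells against single-positive cells had 27 repair genes higher and all tested genes 4376 higher and 4181 lower, single-positive cells against double-negative cells had 4154 of all tested genes lower, and 10 repair genes had a signed step difference called below 0. DESeq2-type size factors left 7 genes with one called above 0. The replicate block over all 9 libraries changed no call of a repair gene in the 3 comparisons (9, 36 and 29 higher; 3, 2 and 2 lower), and left 1 gene with a signed step difference called below 0. In a fit of the 2 populations, also added after the data were seen, the pairing of single-positive cells with double-negative cells gave 34 repair genes higher and 3949 of all tested genes lower; with that block, Fancc lost its call in both comparisons of double-positive cells (0.0520 and 0.0542) and Xrcc6 against single-positive cells (0.0609). The causes of these changes were not tested.

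Leaving out 1 library at a time gave 6 to 16 repair genes higher and 0 to 4 lower for double-positive cells against single-positive cells, 35 to 37 and 2 to 2 for double-positive cells against double-negative cells, and 27 to 32 and 0 to 2 for single-positive cells against double-negative cells. All tested genes ran from 1607 to 2935 higher and 1886 to 2984 lower, 4455 to 5241 and 2911 to 4293, and 3069 to 4213 and 1889 to 3587 in the same order. The signed step difference was called above 0 for 5 to 15 genes and below 0 for 0 to 4. Signs turned 52 times among the 44 genes over all settings, 6 of them with a call on either side. Log2 fold changes that turned when 1 library was left out were Fancd2 -0.040 to 0.079, Brca1 -0.31 to 0.32, Rad51c -0.29 to 0.037, Blm -0.032 to 0.35, Ogg1 -0.097 to 0.087, Xrcc1 -0.13 to 0.041, Pms2 -0.058 to 0.031 for double-positive cells against single-positive cells, and Brip1 -0.25 to 0.31, Apex1 -0.19 to 0.064, Xpa -0.25 to 0.13, Mutyh -0.33 to 0.014 for single-positive cells against double-negative cells. With DESeq2-type size factors, the sign turned for Fancd2 -0.032 for double-positive vs single-positive cells, and Pms2 -0.21 for double-positive vs double-negative cells, and Brip1 -0.057, Pms2 -0.13 for single-positive vs double-negative cells. With library totals, the sign turned for Brca1 0.16, Bard1 0.19, Rad51c 0.15, Fancg 0.099, Fancl 0.13, Pms2 0.22, Ogg1 0.23, Xrcc1 0.23, Ercc3 0.21 for double-positive vs single-positive cells, and Xpa 0.0055 for double-positive vs double-negative cells, and Chek2 0.10, Mutyh 0.44, Apex1 0.60, Lig4 0.28, Xpa 0.55 for single-positive vs double-negative cells. With DESeq2, the sign turned for Fancd2 -0.026 for double-positive vs single-positive cells, and Pms2 -0.18 for double-positive vs double-negative cells, and Brip1 -0.035, Pms2 -0.10 for single-positive vs double-negative cells. With no low-count filter, the sign turned for Apex1 0.065 for single-positive vs double-negative cells. With the strict filter (at least 1 CPM in all 9 libraries), the sign turned for Fancd2 -0.011 for double-positive vs single-positive cells, and Pms2 -0.16 for double-positive vs double-negative cells, and Brip1 -0.018, Pms2 -0.089 for single-positive vs double-negative cells. With only the 2 populations compared, the sign turned for Pms2 -0.066 for double-positive vs double-negative cells. With the least correlated libraries left out, the sign turned for Brca1 0.38, Rad51c 0.13, Fancl 0.021, Fancd2 -0.031 for double-positive vs single-positive cells, and Fancm -0.011, Brip1 -0.47, Apex1 0.042 for single-positive vs double-negative cells. With a replicate block in a fit of 2 populations, the sign turned for Pms2 -0.066 for double-positive vs double-negative cells. Depth limited Rad51c, Fancb, Mutyh, Lig4, Fancf and Palb2 most, with fewer than 50 counts in at least 1 library, and 3 libraries per population limit every comparison.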
